A study of Mus musculus with 18 samples.

Results

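1700027A15Rik (ENSMUSG00000101968.6) is a noncoding locus on the plus strand of mouse chromosome 1, and 1 of its annotated transcripts lies across an exon of Tnp1 on the other strand. It is 1 of 13218 loci in a table of germ cell RNA levels, and 1 of 4117 that reached 1 FPKM in at least 3 of 18 libraries. It was chosen from these same 18 FPKM values, as a candidate index of spermatid RNA in each library, so its levels are given as a description and with no test. The unit of the deposited table is FPKM, which counts fragments per kilobase of a transcript and per unit of library size, and it was used as the authors made it.

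RNA sequencing was done on 6 germ cell types of the ICR mouse testis, with 3 libraries of each in the labels, all of them used, although the design text of the series mentions duplicates. The labels priSG-A and priSG-B (spermatogonia by the usual reading of SG) belong to days 6 and 9 after birth. Those of plpSC and pacSC (SC, spermatocytes) belong to days 14 and 21, and those of rST and elST (ST, spermatids) to days 35 and 56. All groups came from testes of the 1 strain, with no genotype or treatment label, and were separated by STA-PUT velocity sedimentation, which sorts cells mainly by size. The labels do not say whether animals were pooled or whether replicates came from separate preparations, so any p-value below measures only the spread between libraries, which may be technical.

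Spermatids pack their DNA by exchanging histones first for transition proteins and then for protamines, and Tnp1 encodes the more abundant of the transition proteins. Its mRNA is made in round spermatids, is stored, and is translated in elongating spermatids. In the mouse, spermatids are not yet present in the testis at the ages of the priSG-A, priSG-B and plpSC samples, and the first round spermatids form in the third week after birth. No function of 1700027A15Rik is taken as known here.

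The locus spans chr1:72984844-73025507 (mm10), 40664 bases, and GENCODE M21 classes it as antisense. Its 5 annotated transcripts are 321, 617, 423, 432 and 332 bases long (1700027A15Rik-201 to 1700027A15Rik-205). Tnp1 lies at chr1:73015074-73015909 on the minus strand, inside the span, and no other M21 gene shares that span. Only 1700027A15Rik-201 shares exon bases with Tnp1. The shared stretch is 40 bases (chr1:73015725-73015764), all of them in the Tnp1 coding sequence, and makes up 2.87% of the 1396 exonic bases of the locus. The overlap that gives the locus its label is therefore a small piece of 1 transcript, and the remaining exonic bases lie outside Tnp1 exons.

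The exon that makes the overlap and the last exon, in which 4 of the 5 transcripts end, are shown because they separate the sequence shared with Tnp1 from sequence that only the noncoding locus has. Both are on the plus strand of mm10, from the GENCODE M21 transcripts. The first is exon 1 of 1700027A15Rik-201 (chr1:73015691-73015764), with the 40 bases shared with the Tnp1 coding sequence in capitals. The second is exon 3 of 1700027A15Rik-201 (chr1:73025322-73025507), with the polyadenylation hexamer AATAAA in capitals.
Exon 1 of 1700027A15Rik-201: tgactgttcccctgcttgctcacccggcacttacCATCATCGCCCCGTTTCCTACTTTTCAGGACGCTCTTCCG
Exon 3 of 1700027A15Rik-201: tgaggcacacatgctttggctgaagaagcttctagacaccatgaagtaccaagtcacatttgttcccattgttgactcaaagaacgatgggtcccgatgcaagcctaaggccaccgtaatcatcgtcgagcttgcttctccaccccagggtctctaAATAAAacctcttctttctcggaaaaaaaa

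Libraries were made with an Illumina TruSeq kit that keeps no strand information, so within the 40 shared bases reads of Tnp1 mRNA and of the noncoding transcript cannot be told apart. The table gives 1 value per locus and none per transcript or exon, so the part of each level that came from the shared bases was not tested.

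**Figure D1:**
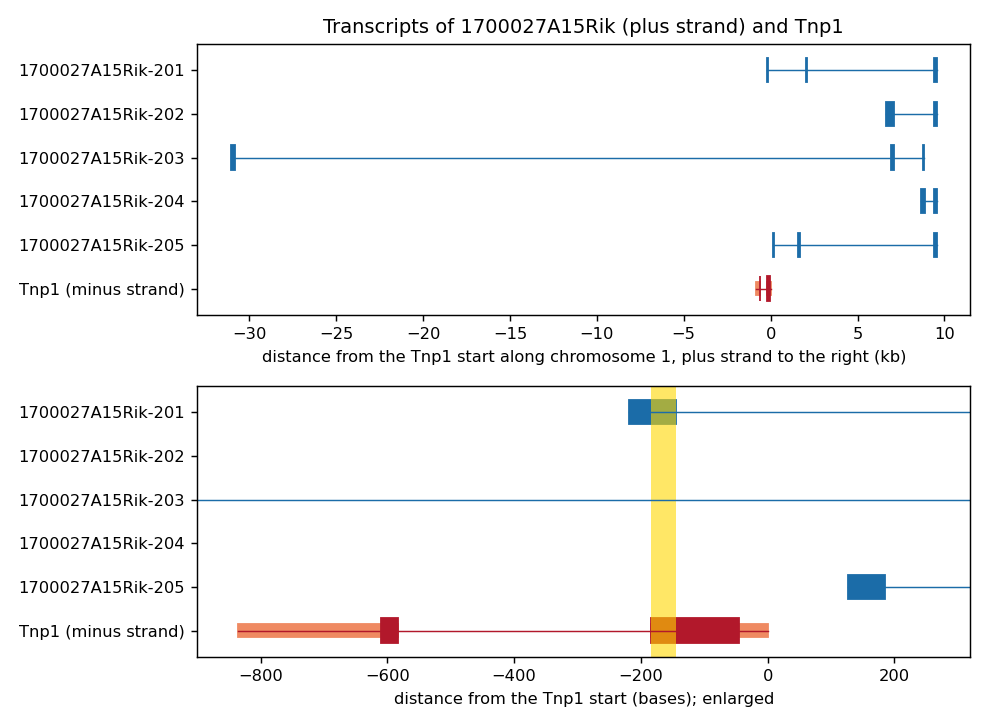
Transcripts of 1700027A15Rik (blue) and of Tnp1 (red, coding bases in dark red), drawn to scale by distance from the M21 start of Tnp1 along chromosome 1. The upper panel runs in kb and the lower panel in bases; thick blocks are exons, lines are introns, and the yellow band marks the 40 shared bases, which 1700027A15Rik-201 has and the other transcripts of the locus lack.

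The RefSeq starts of the noncoding locus and of Tnp1 face away from each other. Not all M21 transcripts do so: 1700027A15Rik-201 starts inside Tnp1, at 73015691, and 1700027A15Rik-203 on its far side, at 72984844. RefSeq (GRCm38.p6) places a start of the locus at chr1:73016036, where 1700027A15Rik-205 begins, and the start of Tnp1 at chr1:73015899, with 136 bases between them. M21 begins Tnp1 slightly upstream of that, at 73015909. A further start of the locus is at chr1:73024586. The stretch between the first pair of starts (chr1:73015900-73016035) is shown on the minus strand, as it reads into Tnp1, because 1700027A15Rik-205 and Tnp1 begin at its ends. Capitals mark TGATGTCA, which lies 94 bases before the Tnp1 start.
Between the starts of Tnp1 and 1700027A15Rik: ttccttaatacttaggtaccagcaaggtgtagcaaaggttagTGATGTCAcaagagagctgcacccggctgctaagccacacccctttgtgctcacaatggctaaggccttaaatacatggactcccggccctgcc

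TGATGTCA was searched beside TGACGTCA, the cAMP response element bound by CREM, a transcription factor of spermatids, and beside the TATA motif TATAAA. All were searched on both strands in 32851 RefSeq promoter windows of 300 bases, and were picked with this sequence in view. TGATGTCA stood in 3.62% of the windows, and the Tnp1 window and the upstream window of the locus both hold the 1 site shown. TGACGTCA stood in 1.79% of windows and in none of the 3 windows of this pair of genes. TATAAA stood in 13.6% of windows and matched only in the window of the downstream start. A match is a description of the letters and not evidence of binding.

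Before the levels, the libraries themselves need a description, because several did not resemble their own type. Depth, inferred from the steps of the FPKM values, was 31.7 to 92.1 M (mega) fragments per library, and 1342 to 2866 loci reached 1 FPKM in a library. Across loci, rST replicate 1 had a Pearson's r of 0.07 with replicate 2 and 0.03 with replicate 3 of its type, but 0.95 with elST replicate 1 (genes are not independent replicates). The library labelled plpSC replicate 3 had r of 0.07 and 0.08 with its own type and 0.96 with elST replicate 2. The libraries labelled priSG-A replicate 3, plpSC replicate 3, pacSC replicate 3, rST replicate 1 and elST replicate 1 are called the 5 libraries apart below, a choice that rests on their profiles. The library labelled elST replicate 3 was kept. It had r of 0.41 and 0.77 with replicates 1 and 2 of its type, but 0.96 and 0.98 with pacSC replicates 1 and 2. Whether any of these libraries carries the label of another library was not tested. Every value by type below, and every difference between types, therefore holds for the libraries as labelled. The libraries also fall into a batch I of 6 (the 3 priSG-B libraries, pacSC replicates 1 and 2, elST replicate 3) and a batch II of 12. The labels name no batch: these were defined by a division at 100 FPKM of AY036118, a locus derived from ribosomal RNA, which stood at 7.25 to 36.2 FPKM below the division and at 1998 to 13911 FPKM above it.

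1700027A15Rik ranged from a listed 0 to 4539 FPKM. In priSG-A it stood at 0.139, a listed 0 and 11.8 FPKM in replicates 1, 2 and 3. In priSG-B it stood at 0.0708, 0.0549 and 0.0593 FPKM, a mean of 0.0617 ± 0.0082 (SD, n = 3). In plpSC it was listed at 0 in replicates 1 and 2 and stood at 874 FPKM in replicate 3. Among the types from ages before spermatids, then, the locus was near or at 0 in 7 of the 9 libraries, and the other 2 are the replicates 3 of priSG-A and plpSC.

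In pacSC the locus stood at 75.8, 84.9 and 1195 FPKM in replicates 1, 2 and 3. In rST it was listed at 0 in replicate 1 and stood at 4539 and 3175 FPKM in replicates 2 and 3. In elST it stood at 0.570, 875 and 73.0 FPKM. The pacSC libraries all carried the locus, whereas 1 library of rST and 1 of elST held little or none of it. The high pacSC library was 14.1 times the middle one, and the highest rST library was 3.80 times the highest pacSC library and 5.19 times the highest elST library.

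**Figure D2:**
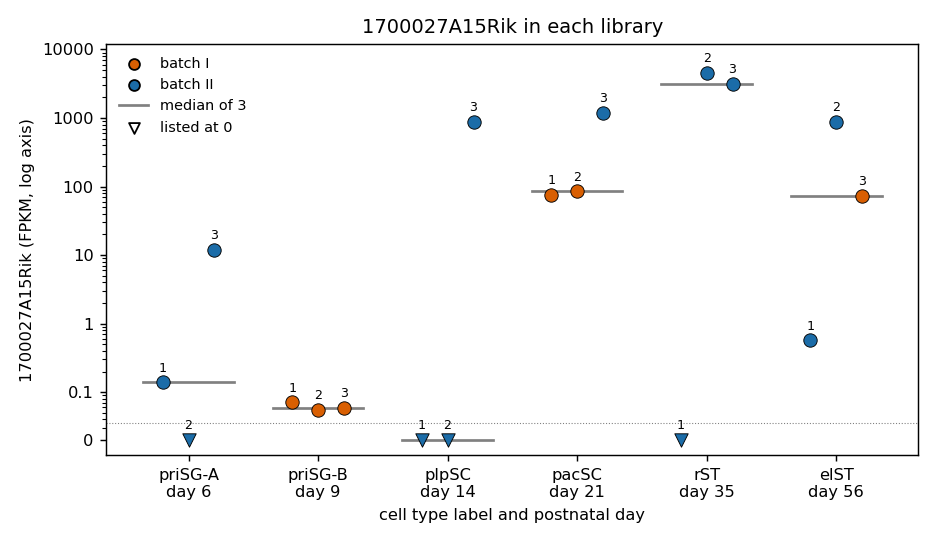
Level of 1700027A15Rik (FPKM, log axis, with listed zeros as triangles below the dotted line) in each of the 18 libraries, by cell type label and postnatal day. Numbers are replicates, colours are the batches, and grey lines are medians of 3; the levels of plpSC run between a listed 0 and 874 FPKM, and those of rST between a listed 0 and 4539 FPKM.

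By the median of 3 libraries the types ran from rST (3175 FPKM) through pacSC (84.9), elST (73.0), priSG-A (0.139) and priSG-B (0.0593) to plpSC (listed at 0). Each type overlapped the next in that order, so no neighbouring pair differed beyond its spread. Farther apart in that order, the lowest pacSC library (75.8 FPKM) stood above the highest priSG-A library (11.8 FPKM). Within types the pooled SD was 4.27 on the log2(FPKM + 1) scale.

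Within its library, 1700027A15Rik was among the most abundant loci wherever it was high. Of 13218 loci by FPKM it ranked 3 in rST replicate 2, 2 in rST replicate 3, 5 in pacSC replicate 3, 6 in plpSC replicate 3 and 7 in elST replicate 2. It ranked 92, 90 and 104 in pacSC replicates 1 and 2 and elST replicate 3, which are the batch I libraries that hold it, and 311 in priSG-A replicate 3. In elST replicate 1 its rank was 2555. The ranks thus form steps rather than following the type labels.

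The fragments behind these values set their precision. At the inferred depth, the level in rST replicate 2 corresponds to 24628 fragments if all came from the shortest transcript and 90304 if all came from the longest. The 11.8 FPKM in priSG-A replicate 3 corresponds to 60.1 to 223 fragments. The level in elST replicate 1 corresponds to 2.52 to 9.17 fragments, and those of priSG-A replicate 1 and the priSG-B libraries to under 2 fragments each (0.432 to 1.95). The order among the libraries near 0 is therefore not resolved at this depth, and a listed 0 may be a failed estimate.

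The 9 libraries above 10 FPKM (a split made after the values were seen) and the 9 below 1 FPKM did not follow the types. Libraries of priSG-A, plpSC, rST and elST stood in both sets. Both sets also hold libraries of both batches. Among the 9 high libraries, the 3 of batch I stood at 73.0 to 84.9 FPKM and the 6 of batch II at 11.8 to 4539 FPKM. The inferred depth was 65.2 to 92.1 M fragments in batch I and 31.7 to 56.8 M in batch II. Their part in the levels was not tested. In bulk libraries such as these, the share of spermatids, the transcript per spermatid and transcript from other cells, such as spermatocytes, cannot be told apart.

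The question of how the rST and elST libraries compare with the 4 earlier types was put to the locus as a description. On the log2(FPKM + 1) scale, which understates changes at low levels, the mean of rST and elST minus the mean of the earlier types was 3.67 for 1700027A15Rik, while the median over 4117 loci was 0.22. The difference was 5.65 without rST replicate 1 and 8.31 without the 5 libraries apart. Within batch I, which has no rST, priSG-A or plpSC library, it was 2.995. There the 1 elST library (73.0 FPKM) lay below both pacSC libraries (75.8 and 84.9 FPKM) and above the priSG-B libraries. Within batch II, which has no priSG-B library, it was 1.65. The sign of the difference was the same in each of these settings, but its size rests on which libraries and types are kept.

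Marker genes of the cells were sought next, since the levels of the locus cannot check themselves. The marker lists (223 genes of spermatids, spermatocytes, spermatogonia and the somatic cells of the testis) were chosen with earlier results of these data known. None of these coding genes, Tnp1 included, is a row of the table, so the labelled types could not be checked against their defining genes and only loci that share exon bases with them could be read. Of those, 12 loci other than 1700027A15Rik passed the 1 FPKM filter and were tested by limma on log2(FPKM + 1), with rST and elST against the 4 earlier types. None of the 12 passed an adjusted p of 0.05, nor did any of the 4117 loci (percent called 0%; smallest limma adjusted p = 0.436, and 0 called by limma without trend and robust estimation). At an unadjusted p under 0.05 there were 2 of the 12, against 5.68% of all loci (234).

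Over genes of spermatids there were 4 tested loci, with a median log2 difference of 1.36 against 0.22 over all loci. Gm10501 (chr17:34976899-34981788) shares 1778 exon bases with Hspa1l, a testis-enriched heat shock protein of the HSP70 family, on the other strand. Its lowest, median and highest levels were 1.41, 149.6 and 1033 FPKM in rST and elST, against 0.978, 1.76 and 544 FPKM in the earlier types. The groups overlapped, and the log2 difference was 2.71 ± 1.44 (SE, limma adjusted p = 0.436).

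Gm50238 (chr17:28076418-28080295) shares 447 exon bases with Tcp11, a gene of sperm motility, on the same strand. Its levels were 1.55, 194.2 and 564 FPKM (lowest, median, highest) in rST and elST, against a listed 0, 1.73 and 233 FPKM in the earlier types. These groups also overlapped, with a log2 difference of 2.50 ± 1.38 (SE, limma adjusted p = 0.436). The remaining pair were Tmem147os over Gapdhs, the sperm form of a glycolytic enzyme, and Gm6225 over Crem, with log2 differences of -0.15 ± 0.26 and 0.23 ± 0.25 (SE). Gm6225 changed sign under quantile and upper-quartile scaling. Over the list of chromatin genes the 1 locus beside 1700027A15Rik was Gm13645, which overlaps Chd5, a remodelling factor of spermatids, and reached at most 0.506 FPKM.

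Over genes of spermatocytes, 4930518J20Rik (chr1:156303489-156304966) shares 176 exon bases with Tdrd5, a piRNA pathway gene. Its lowest, median and highest levels were 0.433, 44.1 and 63.0 FPKM in rST and elST, against a listed 0, 0.258 and 66.3 FPKM in the earlier types. The log2 difference was 1.68 ± 1.08 (SE, limma adjusted p = 0.436). 4931419H13Rik, over the meiotic cyclin Ccna1, had 0.41 ± 0.41 (SE).

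Over genes of spermatogonia, all 3 tested loci had negative differences, with a median of -0.90. Gm43126 (chr6:127122966-127126155), over the cyclin Ccnd2, had a lowest, median and highest level of a listed 0, 0.140 and 3.58 FPKM in rST and elST, against a listed 0, 4.38 and 22.6 FPKM in the earlier types (log2 difference -1.37 ± 0.52, limma adjusted p = 0.436). Gm20402, over the transcription factor gene Foxo1, had a difference of -0.90 ± 0.40 (limma adjusted p = 0.436). Both are the loci with an unadjusted p under 0.05. Their levels in the 9 libraries where 1700027A15Rik is high were at most 2.58 and 1.99 FPKM, both in priSG-A replicate 3. In the 9 low libraries they stood at 3.35 to 22.6 and 1.24 to 9.66 FPKM. That split was taken from 1700027A15Rik itself and runs through the table. In 42.6% of the 4116 other loci compared, the 9 high libraries stood above all the others. No such share was formed for loci lower in them. Gm16277, over the receptor gene Gfra1, had a difference of -0.17 ± 0.30 (limma adjusted p = 0.694) and did not follow that split: it stood at 0.813 to 4.26 FPKM in the 9 high libraries, highest in plpSC replicate 3, and at 0.313 to 2.98 FPKM in the low ones. Its difference turned to 0.068 without the 5 libraries apart.

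The 3 tested loci over genes of somatic cells had negative differences, and none passed the threshold with all 18 libraries. Gm49442 over Dhh and Gm47123 over Ctsl, genes of Sertoli cells, had log2 differences of -0.35 ± 0.35 and -0.24 ± 0.21. Gm48529 over Tagln, a gene of peritubular cells, had -0.42 ± 0.34 (SE in each). Their levels are also given by the split of the libraries taken from 1700027A15Rik. No share over all loci was formed for loci lower in the 9 high libraries. Whether the pattern is particular to these loci was therefore not tested. Gm47123 was at most 0.0566 FPKM in 8 of the 9 high libraries and at 1.62 FPKM in the ninth, priSG-A replicate 3, against 0.618 to 1.46 FPKM in the 9 low ones. Gm48529 stood at 0.656 to 1.44 FPKM in the same 8 libraries and 5.13 FPKM in priSG-A replicate 3, against 1.69 to 9.00 FPKM in the low ones. Gm49442 stood at 1.57 to 5.47 FPKM in the 9 high libraries, against 3.83 to 11.7 FPKM in the low ones. The ranges of all 3 loci overlapped, those of Gm47123 and Gm48529 only through priSG-A replicate 3. Without the 5 libraries apart, the log2 differences were -0.64 for Gm47123, -0.97 for Gm48529 and -0.75 for Gm49442. All 3 then passed the adjusted threshold, as did 84% of all loci. Those libraries were left out for their profiles in these same data, so passing in that fit is no support. The part of somatic RNA in the levels was not tested. No locus over a Leydig cell gene passed the filter, and no locus shared exon bases with the endothelial or blood and macrophage genes. In each of these overlaps, reads of the locus cannot be told from those of the marker gene.

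Without the 5 libraries apart, 10 of the 12 loci over marker genes passed the adjusted threshold, where 84% of all loci did. Higher in rST and elST were Gm10501, Gm50238, Gm6225, 4930518J20Rik and 4931419H13Rik, and lower were Gm43126, Gm20402, Gm49442, Gm47123 and Gm48529. Within batch I, 10 of the 12 passed and 71.9% of all loci did, with 1 elST library that is assumed to vary like the others. Within batch II no locus passed (percent called 0%, with 3 loci at an unadjusted p under 0.05). These shares are near those of the whole table, so they are no result about the listed loci. The 5 libraries apart were also chosen by their profiles in these same data, so the fit without them is no test of the types.

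**Figure D3:**
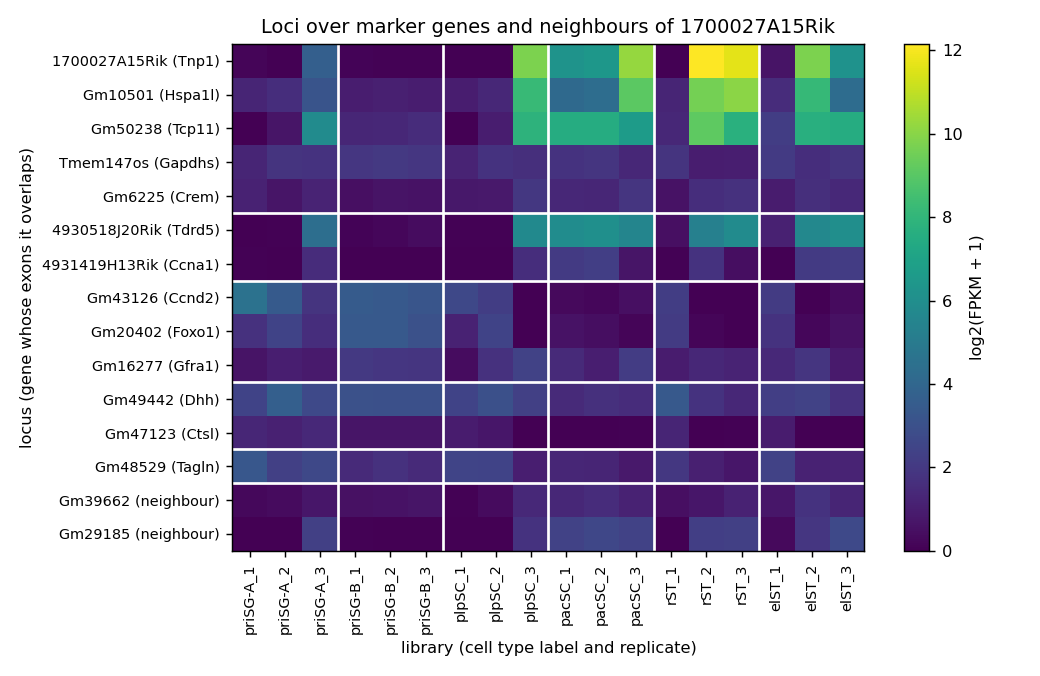
Level, as log2(FPKM + 1), of 1700027A15Rik, of the 12 tested loci over marker genes (gene in parentheses) and of 2 neighbours, in rows, by library, in columns. The loci of the first block are over spermatid genes, followed by those of spermatocytes, spermatogonia, Sertoli cells, peritubular cells and the neighbours. The columns in which 1700027A15Rik is bright are also bright for Gm10501, Gm50238 and 4930518J20Rik. In 42.6% of 4116 loci compared, the same 9 libraries stood above all the others.

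The 9 libraries in which 1700027A15Rik was above 10 FPKM differ in how its level compares with that of the other loci. Across them 1700027A15Rik ran between 11.8 and 4539 FPKM, a ratio of 383 between highest and lowest. Over the same libraries the ratio was 129 for Gm10501, 9.998 for Gm50238 and 3.36 for 4930518J20Rik (19.7 to 66.3 FPKM). In each, the lowest library was priSG-A replicate 3. Without it, an alternative chosen after seeing the data, the ratio was 62.1 for 1700027A15Rik, 61.3 for Gm10501, 5.55 for Gm50238 and 1.71 for 4930518J20Rik. The locus at Tnp1 and that over Hspa1l then had about the same range, and the locus over Tdrd5 was more even than both with or without that library.

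The level of 1700027A15Rik divided by that of 4930518J20Rik, in FPKM, was 0.600 in priSG-A replicate 3. It was 1.27, 1.28 and 1.16 in pacSC replicates 1 and 2 and elST replicate 3. It was 16.6 in plpSC replicate 3, 17.7 in elST replicate 2 and 26.2 in pacSC replicate 3. In rST replicates 2 and 3 it was 117 and 56.5. The pacSC and elST libraries of batch I, whose whole profiles were also alike, lay close together on this ratio. The rST libraries stood at the top.

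The ratio to Gm10501, over the spermatid gene Hspa1l, moved less. It lay between 1.48 in priSG-A replicate 3 and 5.83 in rST replicate 2, and the batch I libraries stood at 3.92 to 4.50. The ratio to Gm50238, over Tcp11, lay between 0.210 in priSG-A replicate 3 and 15.4 in rST replicate 3. These ratios were formed after the levels were seen, and differ by locus in the transcript lengths that the authors' FPKM used.

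**Figure D4:**
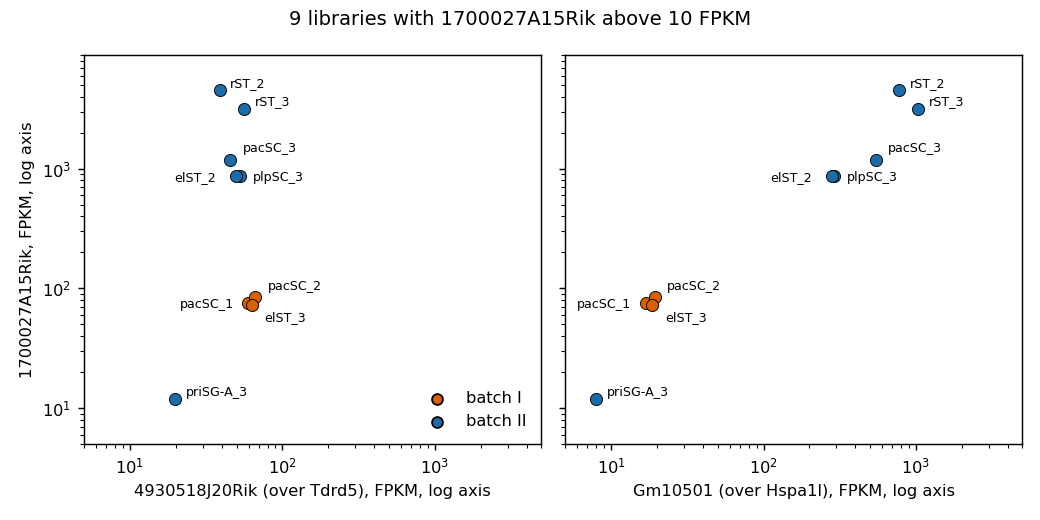
Level of 1700027A15Rik (vertical, FPKM, log axis) against that of 4930518J20Rik (left) and of Gm10501 (right; both horizontal, FPKM, log axes) in the 9 libraries where 1700027A15Rik is above 10 FPKM. Points are single libraries coloured by batch; the locus at Tnp1 spans 11.8 to 4539 FPKM while 4930518J20Rik spans 19.7 to 66.3 FPKM (73.0 to 4539 and 38.7 to 66.3 FPKM without priSG-A replicate 3).

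In the 9 libraries above 10 FPKM the neighbours of 1700027A15Rik were lower than it was, but in the other 9 libraries Gm39662 was above it in 9 of 9 (0.0555 to 0.692 FPKM, against a listed 0 to 0.570 FPKM for 1700027A15Rik). Of the 3 nearest loci of the table on each side, Gm39662, Gm4319 and 4930556G22Rik lie before it and Gm38106, Gm29185 and Pinc after it. Within 500 kb, only Gm29185 and Gm39662 passed the filter. Gm29185 (chr1:73269064-73306360) stood at a lowest, median and highest level of a listed 0, 3.32 and 5.37 FPKM in rST and elST, against a listed 0, 0.0247 and 5.02 FPKM in the earlier types (log2 difference 0.62 ± 0.47, limma adjusted p = 0.444). In the 9 libraries where 1700027A15Rik was high, Gm29185 was at 2.43 to 5.37 FPKM, a ratio of 2.22 between highest and lowest. These levels were above those in the remaining libraries (at most 0.248 FPKM), without the steps seen at 1700027A15Rik. The same 9 libraries stood above all the others in 42.6% of the 4116 loci compared, so this separation is not particular to Gm29185. Gm39662 had a difference of 0.27 ± 0.21 (limma adjusted p = 0.451), which changed sign under quantile normalization. Neither neighbour passed the threshold, in a table where 0% of loci did. Without the 5 libraries apart, chosen by their profiles, both passed, as did 84% of all loci.

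The loci most like 1700027A15Rik were found by ranking the 18 libraries for each locus and taking the mean absolute difference in rank, over 4116 other loci. The median over these was 3.44 ranks. All 18 libraries counted equally in this distance, including the 9 with 1700027A15Rik under 1 FPKM, 4 of them listed at 0. The order among those libraries is not resolved at this depth, so which loci came closest rests in part on unresolved ranks. The 10 closest were 1700031F10Rik and Pldi (0.833), 1700016P04Rik, Gm15738, 1700008J07Rik and 4930597L12Rik (0.889), Gm13872 and 1700019J19Rik (0.944), and 1700003E24Rik and Gm42558 (1.00), the last of which were taken from 17 loci tied at that distance. They lie on 9 chromosomes. Of the 10, 5 carry RIKEN names that begin like that of 1700027A15Rik, as do 336 (8.16%) of the loci compared.

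The choice by library order fixes that these loci are high in the same libraries, so their levels are only a description. In 10 of the 10 the same 9 libraries stood above all the others, as in 42.6% (1754) of the 4116 loci compared. In 7 of the 10 the rST replicates 2 and 3 were the highest, as in 9.67% (398) of those loci. 1700031F10Rik (chr6:88222602-88225678), which shares exon bases with the chaperone gene Dnajb8 on the other strand, had 14.9, 16.0 and 266 FPKM in pacSC, 0.0763, 737 and 658 FPKM in the rST libraries, and 0.443, 164 and 14.9 FPKM in those of elST. 1700016P04Rik (chr6:13413337-13415996) had 47.8, 60.5 and 448 FPKM in pacSC, a listed 0, 879 and 875 FPKM in the rST libraries, and 0.231, 258 and 47.1 FPKM in those of elST. Both show the same pair of high rST libraries, the same low library in rST and in elST, and the same single high pacSC library as 1700027A15Rik.

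The levels of the 10 were below those of 1700027A15Rik in its highest libraries. The highest level among them was 879 FPKM, in 1700016P04Rik, and the lowest maximum was 3.07 FPKM, in 4930597L12Rik. Over the 9 high libraries the ratio of highest to lowest was 271 for 1700031F10Rik, 177 for 1700016P04Rik and 64.2 for Pldi, beside 383 for 1700027A15Rik. Without priSG-A replicate 3, the lowest of the 9 in each, it was 49.4, 18.7 and 11.4, beside 62.1 for 1700027A15Rik. Which loci make the 10 depends on the libraries kept: between 2 and 9 were retained when 1 library was left out, with 2 retained without elST replicate 1 and 1 without the 5 libraries apart. The libraries share depth and batch across all loci, and likeness in their order says nothing of shared function or control.

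**Figure D5:**
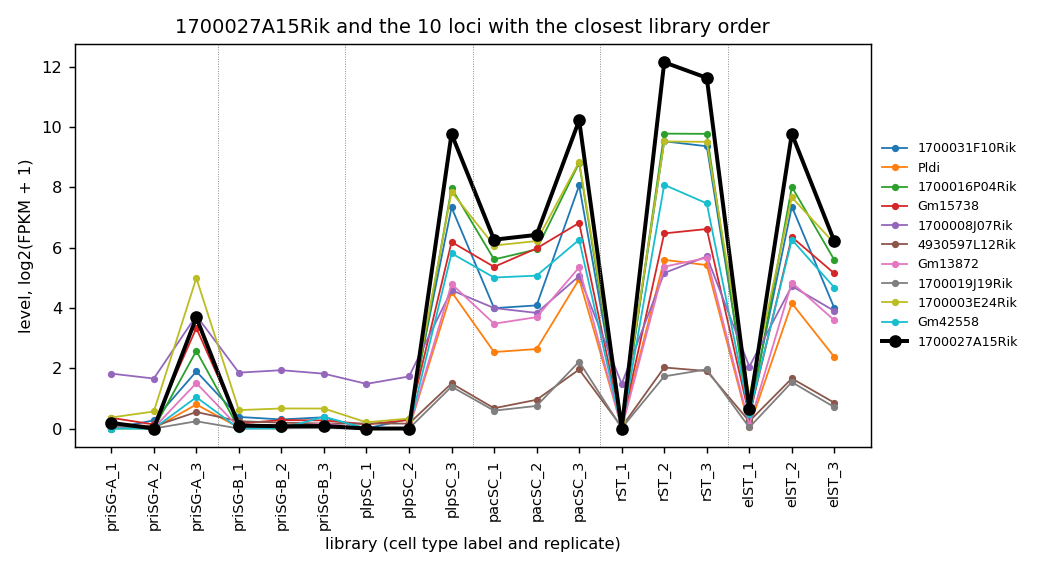
Level, as log2(FPKM + 1), of 1700027A15Rik (black) and of the 10 loci with the closest library order (colours), by library. The lines share high points in plpSC replicate 3, pacSC replicate 3, rST replicates 2 and 3 and elST replicate 2, and low points in rST replicate 1 and elST replicate 1; the heights differ between loci, with 1700027A15Rik the highest in rST replicate 2.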

How the data were processed

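The members and the marker lists were chosen with earlier results of these data known. The authors deposited a single FPKM table, 1 column for each library, made with HISAT2 and StringTie on mm10 per the submitters' processing notes. No version, annotation, strand setting or filter is stated there. Of 13218 loci, 13191 matched a GENCODE M21 identifier and 13098 had the same start and end.

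Depth was inferred from the FPKM steps of 3841 single-exon loci, where 93.5 to 97.9% of low values were whole within 0.02, and was tested on simulated data. Intervals for counting error were not formed, because the files hold no counts.

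FPKM were analysed as log2(FPKM + 1), over the 4117 loci that reached 1 FPKM in 3 libraries. The test was limma 3.58.1 (R 4.3.3) with trend and robust estimation, 1 coefficient per type, two-sided, as the mean of rST and elST minus the mean of the 4 earlier types. P-values were Benjamini-Hochberg adjusted over 4117 loci at a threshold of 0.05, and 1700027A15Rik got no test. Batches were divided at 100 FPKM of AY036118. Alternatives were a pseudocount of 0.1, quantile and upper-quartile scaling, other filters (none, 5 FPKM), a replicate block, a batch term, each batch alone, and leaving out libraries.

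Named loci were 1700027A15Rik, the 10 closest in library order, the 3 nearest on each side, and loci over marker genes: up to 12 for the spermatid lists and up to 3 for each other list, by mean FPKM. Where a gene identifier stood on more rows, the row with the highest mean was read for the marker overlaps. Ranges and ratios were read from the first row of a symbol. Sequences came from GENCODE M21 and RefSeq. Tables and figures were made with Python 3.11.15, numpy 2.4.6, pandas 2.3.3 and matplotlib 3.10.9.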

Additional observations from a re-analysis of the deposited data

How the results depend on the processing

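The difference of 1700027A15Rik (3.67) stayed positive under the alternatives run. It was 4.62 with a pseudocount of 0.1, 3.74 and 3.44 under quantile and upper-quartile scaling, 3.31 with a batch term, 2.995 within batch I and 1.65 within batch II. It lay between 2.61 and 5.65 with 1 library left out, highest without rST replicate 1, and was 8.31 without the 5 libraries apart. The count of called loci over marker genes was 0 with each library left out (0 to 0), as was that of neighbours, but 10 and 1 within batch I and 10 and 2 without the 5 libraries apart. Fewer libraries entered these fits, the 5 libraries apart were chosen by their profiles, and the cause was not tested.

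With the replicate block the difference was 3.67 and 0 loci were called, with 724 at an unadjusted p under 0.05. Libraries of the same number deviated together only in part. Of 45 same-number pairs, 25 had a correlation of deviations over 0.1. The lowest was -0.83 and the median 0.13, against a median of -0.10 for other pairs. With a batch term 1 locus of all was called. With 1 library left out, the loci at an unadjusted p under 0.05 numbered 59 (without elST replicate 2) to 1753 (without rST replicate 1), and none passed after adjustment.

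Of the 10 loci closest in library order, 2 remained by centred log2 differences, 8 with the 5 FPKM filter, 1 without the 5 libraries apart, 2 within batch II, and 2 to 9 with 1 library left out.

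Of 398 alternatives for 14 single loci, 6 turned the sign: Gm6225 to -0.11 under quantile normalization, -0.0077 under upper-quartile scaling and -0.078 within batch II, Gm39662 to -0.019 under quantile normalization, Tmem147os to 0.039 within batch II, and Gm16277 to 0.068 without the 5 libraries apart. A further 23 passed the threshold, all within batch I or without the 5 libraries apart. The median of all loci moved between 0.00 (quantile) and 0.62 (pseudocount 0.1) under the scalings and pseudocount.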
